A study of Mus musculus with 8 samples.

Results

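Titin, the myomesins, the myosin-binding proteins and the myosin methyltransferase Smyd1 were followed in cultured mouse muscle cells after knockdown of DOR, the product of Trp53inp2. The genes were chosen by name, as Ttn, Myom1, Myom2, Mybpc1, Mybpc2, Mybph and Smyd1, 7 of the 18193 genes on the array with a probe set of their own. Together they have 22 of the 45037 probe sets tested, all of which carry only 1 gene symbol in the platform annotation. The 7 genes and the lists below were chosen with earlier results of these data known. The shares over all genes given beside their counts are therefore descriptive and not an independent test. The study used C2C12, an established mouse myoblast line that forms myotubes when serum is reduced, in 4 cultures with a lentivirus encoding DOR siRNA and 4 with a lentivirus encoding scrambled RNA. Per the labels' protocols, both groups received virus at an moi of 100, grew for a further 5 to 7 days, were sorted on GFP to a purity of 93 to 99% and spent 4 days in 5% horse serum. Other labels name the cells confluent myoblasts, so the stage at harvest is not settled, and nothing states how the replicate cultures were derived from the line. The p-values below therefore measure the spread between these cultures.

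In the sarcomere, myosin molecules are packed into thick filaments that are held in register at their centre by the M-band. Titin, encoded by Ttn, runs from the Z-disc to the M-band and acts as a spring and a ruler. Myomesin 1 and myomesin 2 bridge neighbouring myosin filaments and bind titin in the M-band. Myosin-binding protein C sits on the thick filament in regular stripes, with Mybpc1 known as the slow and Mybpc2 as the fast skeletal form, and myosin-binding protein H is their smaller relative. Smyd1 is a lysine methyltransferase of striated muscle that is needed for the assembly of thick filaments in zebrafish.

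Promoter windows were available for 6 of the 7 genes, from RefSeq on GRCm38.p6, each reaching from 250 bases before a start site to 50 bases after it. The windows of Ttn (chr2:76982498-76982797, minus strand), Myom1 (chr17:71019307-71019606, plus strand) and Mybph (chr1:134193198-134193497, plus strand) are shown as examples. Each holds a motif that is rarer than the general E-box. Those of Mybpc1 and Mybpc2 also hold such a motif and are not printed. Capitals mark every match, on either strand, to the E-box CANNTG, the MCAT motif CATTCC, the MEF2 consensus and the CArG box.
Ttn: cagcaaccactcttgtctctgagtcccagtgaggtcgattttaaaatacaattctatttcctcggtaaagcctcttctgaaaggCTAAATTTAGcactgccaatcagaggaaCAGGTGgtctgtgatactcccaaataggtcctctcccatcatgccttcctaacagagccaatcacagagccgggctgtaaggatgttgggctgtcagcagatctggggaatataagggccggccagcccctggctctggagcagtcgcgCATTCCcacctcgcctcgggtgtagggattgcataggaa
Myom1: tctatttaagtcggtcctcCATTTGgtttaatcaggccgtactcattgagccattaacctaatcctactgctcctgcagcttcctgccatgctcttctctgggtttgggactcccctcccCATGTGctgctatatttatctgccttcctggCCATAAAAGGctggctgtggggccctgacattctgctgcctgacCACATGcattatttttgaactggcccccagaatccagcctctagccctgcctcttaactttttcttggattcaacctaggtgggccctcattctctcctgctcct
Mybph: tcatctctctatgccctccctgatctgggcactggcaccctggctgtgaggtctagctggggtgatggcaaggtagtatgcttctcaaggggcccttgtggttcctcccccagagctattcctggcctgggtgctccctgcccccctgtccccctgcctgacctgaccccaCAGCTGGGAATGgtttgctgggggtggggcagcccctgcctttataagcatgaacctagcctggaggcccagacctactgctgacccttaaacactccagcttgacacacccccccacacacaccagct

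The Ttn window has a match to the MEF2 consensus that begins at base -166 from the start site, and 3.19% of all 32851 windows hold one. The Myom1 window, which lies inside the annotated span of its gene, has a CArG box, the motif of serum response factor, at -99, against 1.63% of all windows. In the Mybph window an E-box of the form CAGCTG at -79 is followed directly by an MCAT match on the minus strand at -73. The share of windows with this adjoining pair was not computed. CAGCTG occurs in 16.3% and CATTCC in 14.7% of windows, and the general E-box in 72.3%, so the last carries little information. The windows of Mybpc1 and Mybpc2 hold E-boxes, and that of Mybpc2 also an MCAT match. In the Mybpc1 window the E-box at -87 has the form CAGCTG, as in Mybph. The letters of the 4 motifs marked by capitals are not in the window of Smyd1. These matches describe the letters of the windows only.

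Knockdown of the target was checked first. The brighter probe set of Trp53inp2 read 10.92 to 11.55 log2 units in the scrambled arrays and 9.18 to 9.93 in the DOR siRNA arrays, a difference of -1.83 ± 0.17 (standard error; limma adjusted p = 0.00087), while its dimmer probe set differed by 0.14 ± 0.08 (limma adjusted p = 0.52). Array medians lay between 6.14 and 6.20. Of 10 markers of skeletal muscle cells fixed for the check, 10 had scrambled means at or above the median of all values, 6.18. The same held for 4 of 6 fibroblast, 2 of 4 leukocyte, 1 of 3 adipocyte, 1 of 5 cardiomyocyte and 0 of 5 endothelial markers.

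All 7 genes read lower in the knockdown by their brightest probe set, with differences between -1.31 and -0.43 on the log2 scale, and 4 of them, Myom1, Myom2, Mybph and Smyd1, fell past the threshold of a limma adjusted p under 0.05. Over all genes, 1.45% were called lower by the same rule. For 6 of the 7, all but Mybpc1, the values of the 2 groups did not overlap, as was the case in this direction for 4.13% of all genes. The median difference over the 7 genes was -0.60, against 0.02 over all genes. Replicate numbers were taken as pairing the cultures of the 2 groups, an assumption that the correlations between arrays given below bear out only in part. With the number as a block 7 of the 7 were called lower, against 3.16% of all genes. By probe set, 9 of 22 were called lower and 0 higher, against 1.19% of all probe sets called lower, 14 of 22 did not overlap, against 4.05%, and with the block 16 of 22 were called lower, against 2.81%. In bulk RNA, fewer cells of the muscle type and less RNA per cell cannot be told apart. Of the 10 muscle cell markers, 2 fell, Tnnt3 (-0.70 ± 0.16, limma adjusted p = 0.036) and Myh3 (-0.42 ± 0.09, limma adjusted p = 0.030), against 1.45% of all genes. The median over the 10 was -0.21, and 8 had negative differences. With the block 3 of the 10 were called lower, against 3.16% of all genes, and 1 higher. The share of all genes called higher was not computed. Ckm differed by -0.65 ± 0.23 (limma adjusted p = 0.18, and 0.0063 with the block). Myog, Acta1 and Chrna1 differed by -0.31, -0.23 and -0.19 without overlap of the groups (limma adjusted p between 0.083 and 0.20). The myogenic factor Myod1 differed by -0.05, the intermediate filament gene Des by -0.07 and the cadherin gene Cdh15 by 0.12 (limma adjusted p between 0.74 and 0.89). Myf5, another myogenic factor, differed by 0.45 (limma adjusted p = 0.080) and was called higher with the block (adjusted p = 0.044).

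**Figure D1:**
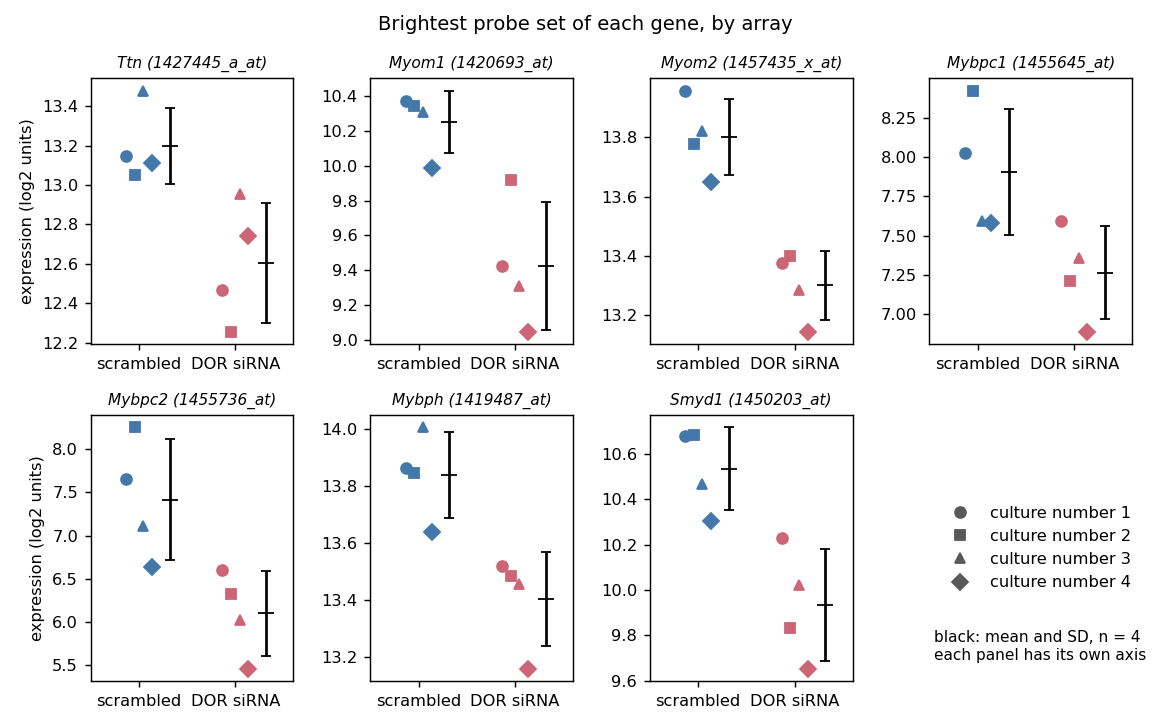
Expression in log2 units of the brightest probe set of each of the 7 genes in the 4 scrambled and 4 DOR siRNA arrays; marker shapes give the culture number, and the black bar is the mean with its SD (n = 4). The groups overlap in the panel of Mybpc1 and in no other panel, and levels of different panels are not comparable because each probe set has its own response.

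Titin (Ttn; chromosome 2, bases 76703980 to 76982557 of GRCm38.p6) was measured by 6 probe sets, and all 6 read lower in the knockdown, with differences between -0.81 and -0.58 log2 units. The brightest, 1427445_a_at, read 13.15, 13.05, 13.48 and 13.11 in scrambled cultures 1 to 4 and 12.47, 12.25, 12.95 and 12.74 in DOR siRNA cultures 1 to 4. The highest knockdown value, in culture 3, lay just under the lowest scrambled value, in culture 2. The mean went from 13.20 ± 0.19 to 12.60 ± 0.31 (SD, n = 4 each), a difference of -0.60 ± 0.15 (standard error) that missed the threshold (limma adjusted p = 0.055) and passed it with the cultures paired (adjusted p = 0.0074). A dimmer probe set, 1431928_at, gave the smallest p of all 22. It read 8.0, 8.14, 8.12 and 7.79 with scrambled RNA and 7.30, 7.40, 7.34 and 7.50 with DOR siRNA, so that the groups were well apart, and it fell by 0.62 ± 0.09 (limma adjusted p = 0.0068).

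The remaining probe sets of Ttn gave like differences with more spread. The second brightest, 1427446_s_at, fell by 0.61 ± 0.15 (limma adjusted p = 0.047), a call that was lost when any 1 array other than scrambled 4 was left out (limma adjusted p up to 0.14) and under cyclic loess (limma adjusted p = 0.053). Its suffix marks probes that match more than 1 transcript. Probe sets 1444083_at and 1444638_at differed by -0.77 ± 0.23 and -0.81 ± 0.21 (limma adjusted p = 0.11 and 0.069), and both were called when the cultures were paired (adjusted p = 0.021 and 0.030). Both were lowest in DOR siRNA 2, at 10.09 and 8.95, while the other knockdown arrays read 10.95 to 11.36 and 9.84 to 10.13. The dimmest, 1446450_at, differed by -0.58 ± 0.24 with overlapping groups (limma adjusted p = 0.25). As the mean over its 6 probe sets, Ttn differed by -0.67 ± 0.15 (limma adjusted p = 0.034), and by such means 6 of the 7 genes were called lower, against 2.04% of all genes.

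Of the M-band proteins, Myom1 (chromosome 17, bases 71003332 to 71126856) had 1 probe set, which read 10.37, 10.34, 10.31 and 9.99 with scrambled RNA and 9.42, 9.92, 9.31 and 9.04 with DOR siRNA. The groups did not overlap, although DOR siRNA 2 came close to scrambled 4. Means of 10.25 ± 0.18 and 9.42 ± 0.37 (SD, n = 4 each) put Myom1 1.77-fold lower, a difference of -0.83 ± 0.16 on the log2 scale (limma adjusted p = 0.023). The call was lost without scrambled 1, 2 or 3 or DOR siRNA 1 or 3, where the adjusted p reached 0.079, and the adjusted p was 0.014 without scrambled 4 and 0.0039 without DOR siRNA 2.

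Myom2 (chromosome 8, bases 15057653 to 15133420) fell by 3 of its 4 probe sets. The brightest, 1457435_x_at, read 13.96, 13.78, 13.82 and 13.65 with scrambled RNA and 13.38, 13.40, 13.28 and 13.14 with DOR siRNA. These groups were separated by more than their own SDs of 0.13 and 0.12, and the difference was -0.50 ± 0.09 (limma adjusted p = 0.015). Probe set 1438175_x_at fell by 0.51 ± 0.09 (limma adjusted p = 0.014) and 1450917_at by 0.67 ± 0.15 (limma adjusted p = 0.035), the latter with 1 knockdown array, DOR siRNA 2 at 11.89, above scrambled 4 at 11.86. The suffix of the first 2 marks probes that may bind other transcripts as well. Both of these lost the call without scrambled 1 or 3 or DOR siRNA 3 (adjusted p at most 0.054), and 1450917_at kept it without scrambled 4 or DOR siRNA 2 among the arrays left out in turn. The fourth probe set, 1438372_at, was dim at 4.06 and 4.07 and differed by 0.002 ± 0.09.

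The C-type myosin-binding proteins, which stabilise the thick filament and bind titin, are encoded here by Mybpc1 and Mybpc2. Mybpc2, the fast form (chromosome 7, bases 44501699 to 44524715), read 7.65, 8.25, 7.11 and 6.63 with scrambled RNA and 6.61, 6.32, 6.03 and 5.46 with DOR siRNA by its 1 probe set. Every knockdown value was below every scrambled one, but DOR siRNA 1 lay within 0.1 log2 units of scrambled 4. The means were 7.41 ± 0.70 and 6.10 ± 0.49 (SD, n = 4 each), the difference -1.31 ± 0.32 (limma adjusted p = 0.053) and, with the cultures paired, the adjusted p was 0.0029. Its knockdown mean was under the median of all values, 6.18, so the size of this difference, the largest of the 7, is not firm.

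Mybpc1, the slow form (chromosome 10, bases 88518279 to 88605229), had 3 probe sets, of which none passed the limma test (adjusted p between 0.091 and 0.12; all 3 had an unadjusted p under 0.05). The brightest, 1455645_at, read 8.03, 8.42, 7.60 and 7.58 with scrambled RNA and 7.59, 7.21, 7.36 and 6.89 with DOR siRNA. The groups touched, since DOR siRNA 1 lay at the level of scrambled 3 and 4. The difference was -0.64 ± 0.19, and those of 1444341_at and 1442769_at were -0.94 ± 0.29 and -1.05 ± 0.30. Pair 2 gave -2.27 and -2.23 for the latter probe sets, against -0.95 to -0.28 in the other pairs. The knockdown mean of 1442769_at, 5.87, was under the median of all values, 6.18, so the size of its difference is not firm. With the cultures paired, 1455645_at and 1442769_at were called (adjusted p = 0.032 and 0.042) and 1444341_at was not (adjusted p = 0.094). As the mean over its probe sets, Mybpc1 was the 1 gene of the 7 that did not pass (-0.88 ± 0.25, limma adjusted p = 0.076).

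Mybph (chromosome 1, bases 134193418 to 134201237) had 1 probe set, and its difference was the smallest of the 7. It read 13.86, 13.85, 14.01 and 13.64 with scrambled RNA and 13.52, 13.48, 13.46 and 13.16 with DOR siRNA, with a gap of about 0.1 between the groups. Means of 13.84 ± 0.15 and 13.40 ± 0.17 (SD, n = 4 each) put Mybph 1.35-fold lower, a difference of -0.43 ± 0.10 on the log2 scale (limma adjusted p = 0.0499). That p lies at the threshold: the call was lost without any 1 array other than scrambled 4 (limma adjusted p up to 0.14), and with the cultures paired the adjusted p was 0.013.

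Smyd1 (chromosome 6, bases 71213940 to 71262281) split by probe set. The brightest, 1450203_at, read 10.68, 10.68, 10.47 and 10.30 with scrambled RNA and 10.23, 9.83, 10.02 and 9.65 with DOR siRNA, without overlap. It fell by 0.60 ± 0.13 (limma adjusted p = 0.034), and 1421329_a_at fell by 0.73 ± 0.16 (limma adjusted p = 0.032). Probe set 1441667_s_at differed by -0.52 ± 0.14 (limma adjusted p = 0.067, and 0.0077 with the cultures paired). The other 3 probe sets had scrambled means of 7.14, 6.83 and 3.08 and differed by 0.09 ± 0.11, 0.03 ± 0.09 and -0.11 ± 0.09 (limma adjusted p between 0.62 and 0.94). The labels and annotation do not say where in the transcript these lie. Without scrambled 1, 2 or 3 or DOR siRNA 3 or 4 both calls were lost, and that of 1450203_at also without DOR siRNA 2 (adjusted p at most 0.11).

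**Figure D2:**
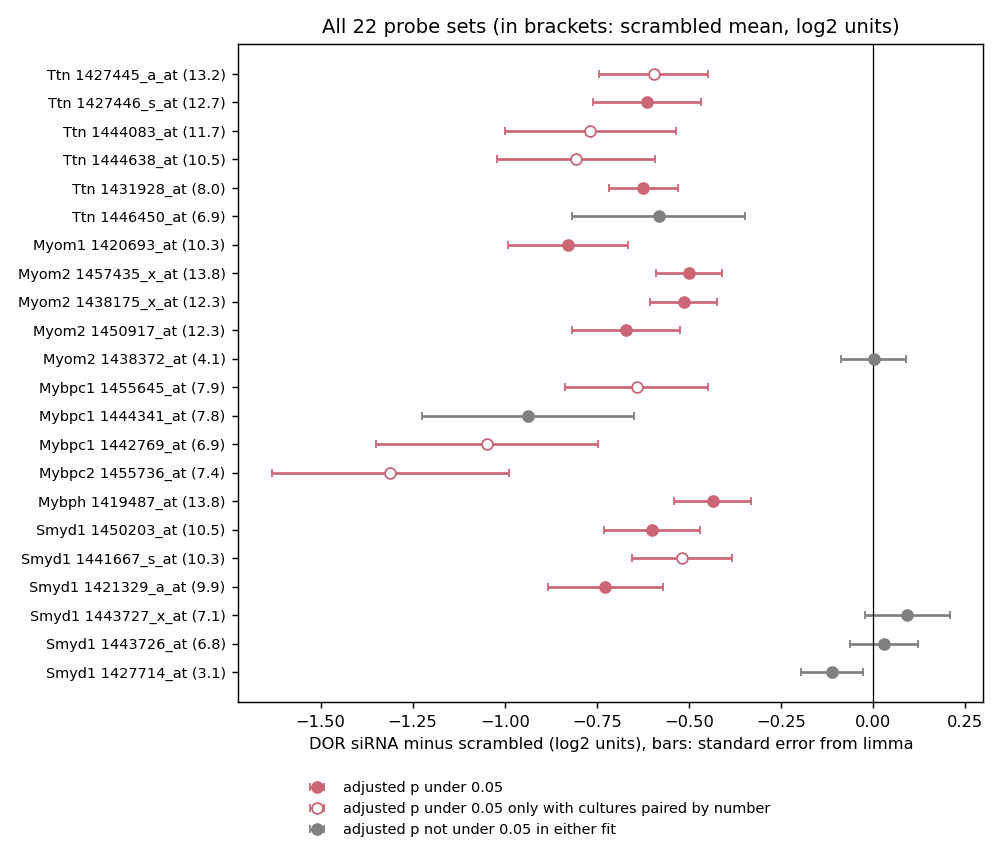
DOR siRNA minus scrambled, in log2 units, for the 22 probe sets, with bars of 1 standard error from limma and the scrambled mean in brackets. Filled red points (9) passed an adjusted p under 0.05, open red points (7) passed only with the cultures paired by number, and grey points (6) passed in neither fit; the 3 points at or above 0 belong to Myom2 and Smyd1.

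Whether these genes changed by different amounts was tested directly. For each of 19 contrasts, 15 between probe sets of 1 gene and 4 between genes, the difference of the 2 probe sets was taken in each array and compared between groups by an exact two-sided permutation test over 70 splits. The smallest p possible was 0.029, and at least 11 contrasts would need it for any to pass after Benjamini-Hochberg adjustment. None of the 19 passed, and 1 had an unadjusted p under 0.05, the brightest against the dimmest probe set of Myom2 (-0.50, exact p = 0.029, adjusted p = 0.18). The difference of Mybpc2 less that of Mybph was -0.88 log2 units (exact p = 0.057, adjusted p = 0.18), and that of Mybpc1 less that of Mybpc2 was 0.67 (exact p = 0.057, adjusted p = 0.18). The difference of Myom1 less that of Myom2 was -0.33 (exact p = 0.11, adjusted p = 0.27), and the differences of Ttn and Smyd1 were 0.004 apart (exact p = 1, adjusted p = 1). The brightest Smyd1 probe set less each of the 3 whose differences lay near 0 gave -0.69 to -0.49 log2 units (exact p = 0.057, adjusted p = 0.18 each).

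Within numbered pairs of cultures, the knockdown array was the lower one in 4 of 4 pairs for each of the 7 genes. For all but Mybpc1 this follows from groups that do not overlap, and it adds nothing to that result. Pair 2 gave the largest difference for Mybpc2 (-1.93, against -1.18 to -1.05 in the other pairs), for Mybpc1 (-1.21, against -0.69 to -0.23), for Smyd1 (-0.85, against -0.65 to -0.44) and for Ttn (-0.80, against -0.68 to -0.38). The same pair gave the smallest difference for Myom1 (-0.42, against -1.0 to -0.94) and Myom2 (-0.38, against -0.58 to -0.51). For Mybph the pairs ranged from -0.55 to -0.34, with pair 2 at -0.36. These orders describe 4 pairs and were not tested. The actin and Gapdh control probe sets, whose 3' minus 5' difference gauges RNA integrity, stood apart in DOR siRNA 2, with a mean of 0.28 against 0.06 to 0.15 in the other 7 arrays. With that difference as a covariate 6 of the 7 genes were called lower, all but Mybpc1, and without DOR siRNA 2 the calls numbered 2.

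**Figure D3:**
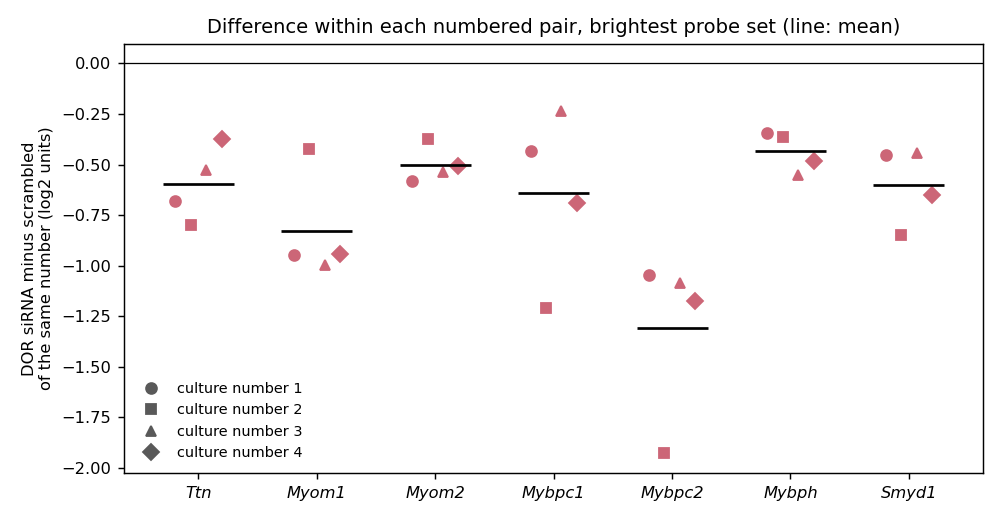
DOR siRNA minus scrambled of the same culture number, in log2 units, for the brightest probe set of each gene; shapes give the culture number and the line is the mean of 4 pairs. All 28 points lie below 0, which for all genes but Mybpc1 follows from groups that do not overlap. The square of pair 2 is the lowest for Ttn, Mybpc1, Mybpc2 and Smyd1 and the highest for Myom1 and Myom2.

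The calls rested on few arrays. By brightest probe set, the number of the 7 genes called lower was 0 without scrambled 1 or 3, 1 without scrambled 2 or DOR siRNA 3, 2 without DOR siRNA 1, 2 or 4, and 5 without scrambled 4. Of the 22 probe sets, 1 was called without scrambled 1 or 3, 3 without scrambled 2 and 12 without scrambled 4. Leaving out knockdown array 1, 2, 3 or 4 gave 5, 8, 2 and 4 called probe sets, in that order. Probe set 1431928_at of Ttn alone kept its call in 8 of 8 (limma adjusted p up to 0.030). The directions of the 7 brightest probe sets held in all of these fits. For all but that of Mybpc1 the groups do not overlap, so leaving out 1 array could not turn the sign.

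Partners of these proteins were lower in part. Of 18 measured genes that encode other titin, M-band and A-band partners, 4 fell and 14 did not pass, with a median difference of -0.40, and the paired fit called 9 lower, against 1.45% and 3.16% of all genes. Myom3, another myomesin, fell by 0.82 ± 0.19 (limma adjusted p = 0.045). Trim63, a ubiquitin ligase that binds titin near the M-band, fell by 0.79 ± 0.18 and its relative Trim54, which associates with microtubules, by 0.76 ± 0.18 (limma adjusted p = 0.038 and 0.044), and Actn2, the Z-disc actinin that binds the other end of titin, fell by 1.71 ± 0.20 (limma adjusted p = 0.0021). The count was 1 without scrambled 1, 2 or 3 or DOR siRNA 1 or 3, and 2 without DOR siRNA 4. With a variance trend and a robust prior, Myom3 and Trim54 were no longer called (limma adjusted p = 0.055 and 0.050). Tcap, which caps titin at the Z-disc, differed by -1.14 ± 0.31 (limma adjusted p = 0.076, and 0.011 with the cultures paired).

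In the list of myosins that form the thick filament, which also holds the myosin light chain kinase gene Mylk2, 6 of 14 fell. This compares with 1.45% of all genes. The other 8 did not pass, and the median was -0.54. The paired fit called 8 lower, against 3.16% of all genes. The named members are the fast heavy chains Myh4 (-2.55 ± 0.40, limma adjusted p = 0.0087) and Myh1 (-1.18 ± 0.19, 0.0092), the light chain Myl2 (-1.45 ± 0.30, 0.027) and the embryonic heavy chain Myh3 (-0.42 ± 0.09, 0.030). The knockdown mean of Myl2, 6.07, was under the median of all values, 6.18, so the size of its difference is not firm. Its call was lost with a variance trend and a robust prior (limma adjusted p = 0.061). The unpaired count was 3 without scrambled 1 or DOR siRNA 1, 2 without scrambled 2 or DOR siRNA 3, and 3 with a variance trend and a robust prior. In the list of myosin folding and Smyd1 partners 1 of 10 fell, against 1.45% of all genes, 9 did not pass and the median was 0.13. The paired fit also called 1 lower, against 3.16% of all genes. The one that fell was Unc45b, the muscle chaperone that folds myosin heads (-0.65 ± 0.13, limma adjusted p = 0.027), a call lost without scrambled 1, 2 or 3 or DOR siRNA 3 (adjusted p at most 0.090). Naca, whose muscle form binds Smyd1, differed by 0.13 ± 0.10 (limma adjusted p = 0.61), though the probe set is not specific to that form as far as the annotation says.

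Of 14 upstream muscle factors 2 fell, against 1.45% of all genes, and 12 did not pass, with a median of -0.14. The paired fit called 3 lower, against 3.16% of all genes, and 1 higher. Mef2c, which activates muscle genes through the MEF2 motif, fell by 1.53 ± 0.16 (limma adjusted p = 0.0014) and Mef2a by 0.42 ± 0.09 (limma adjusted p = 0.035). The unpaired count was 3 without scrambled 4, 4 with array weights and 1 without any other single array. Srf, which binds the CArG box, differed by -0.22 ± 0.09 (limma adjusted p = 0.26). Tead4 differed by -0.62 ± 0.18 (limma adjusted p = 0.097, and 0.0056 with the cultures paired) and Myog by -0.31 ± 0.09 (limma adjusted p = 0.083). Of the 14 factors, 9 had negative differences. Fibroblast markers showed 1 call among 6, Pdgfra, which was higher by 0.57 (limma adjusted p = 0.032), and their summed linear level ran from 5064 to 5892 in the scrambled arrays and from 5504 to 10925 in the knockdown arrays. Most of that sum was Col1a2, which read 12.06 to 12.31 log2 units with scrambled RNA and 12.71, 13.26, 12.57 and 12.26 with DOR siRNA, and was not called (0.49 ± 0.17, limma adjusted p = 0.17). Its highest value was in DOR siRNA 2, the array that stood apart in the 3' minus 5' difference. Lum differed by 0.52 ± 0.16 (limma adjusted p = 0.11, and 0.025 with the cultures paired), Col1a1 by 0.04, and Thy1 and Dpt by -0.13 and -0.03. The median over the 6 was 0.26, and the paired fit called 2 higher, Pdgfra and Lum. For the counts called higher, here and among the 14 factors, no share over all genes was computed. Of these 6, Thy1 and Lum had scrambled means under the median of all values, and RMA values have no true 0. Their part in the lower values above was not tested.

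**Figure D4:**
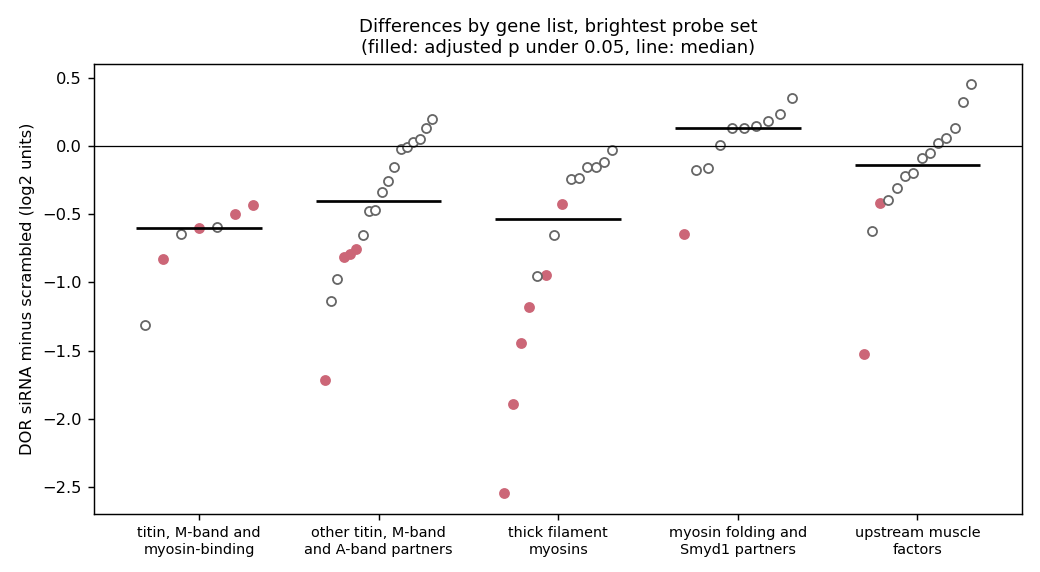
DOR siRNA minus scrambled, in log2 units, by brightest probe set, for the 7 genes and for 4 lists of related genes; each point is a gene, filled where the limma adjusted p was under 0.05, and lines are medians. The 7 genes all lie below 0, whereas the myosin folding and Smyd1 partners centre on 0.13 with Unc45b as the 1 filled point.

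The genes with the most similar profiles were found among 11261 other genes whose brightest probe set reached the median of all values, by the root mean square difference between profiles centred on their own mean over the 8 arrays. For Myom2 these were Nexn, an actin-binding Z-disc protein, Srl, which encodes sarcalumenin of the sarcoplasmic reticulum, and Prepl, at 0.043, 0.047 and 0.067 log2 units, against a spread of 0.27 in Myom2 itself. For Mybph they were Tnnt2, the cardiac troponin T also made in embryonic muscle, the fusion protein Mymx and Runx1 (0.051 to 0.071, against 0.26), and for Smyd1 they were Unc45b, Slc5a6 and Chpt1 (0.076 to 0.086, against 0.35). Myom1 was closest to Ppfia4, the calcium release channel gene Ryr1 and the mitofusin gene Mfn2 (0.091 to 0.11, against 0.48). Mybpc1 was closest to Stk11ip, the fatty acid binding protein gene Fabp3 and C130080G10Rik (0.087 to 0.12, against 0.44), and Mybpc2 to Mypn, which encodes myopalladin, Tcap and Coq8a (0.22 to 0.27, against 0.84). For Ttn the nearest were Frmd4b, Tspan32 and B4galt6 (0.12 to 0.16, against 0.37). Among the 7 themselves, Myom2 and Mybph were nearest to each other (0.091) and Ttn and Mybpc2 farthest apart (0.74). All these profiles share the same 8 arrays and the difference between the groups, so the distances are descriptive.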

How the data were processed

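Per the submitters' processing notes, the authors made the deposited log2 expression values per probe set with RMA, which corrects background, quantile-normalizes the arrays and summarises probes. The RMA version is not given in the sources used here. Per the labels' protocols, 25 ng of total RNA per sample was amplified and hybridised to 1-colour Affymetrix arrays. Quantile normalization hides a shift of all transcripts, and differences of dim probe sets are compressed toward 0. The number of arrays limits the precision.

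After removal of 64 control probe sets, 45037 entered the tests. The platform annotation listed 1 symbol for 34945, several for 932 and none for 9160, and 34741 of the first kind matched a RefSeq gene identifier. Some genes of the lists are not analysed here, and counts are over those measured. A gene's brightest probe set, by mean over 8 arrays, stood for it. The test was limma 3.58.1 in R 4.3.3 (group alone, eBayes), two-sided, with Benjamini-Hochberg adjustment over all probe sets. A difference is knockdown minus control in log2 units, with the model's standard error. Contrasts between probe sets used scipy 1.17.1. Members and lists were chosen with earlier results of these data known. All probe sets of the 7 genes were named, with Trp53inp2, up to 4 called genes with the smallest p in each list and the 3 nearest profiles per gene. Tcap, Naca, Srf, Tead4, the marker genes and the genes under other observations were named after their values were seen.

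Once group means were subtracted, arrays of 1 number correlated at 0.14 to 0.47 across probe sets, every pair above 0.1, so the numbers in the labels were taken as pairing the cultures. Arrays of different numbers correlated at -0.39 to 0.27, and scrambled 2 with DOR siRNA 1, at 0.27, exceeded 3 of the 4 same-number pairs. On simulated data for this comparison (45037 probe sets, 200 changed, 10 runs) the test recovered 59.4% of changes of 0.5 and 98.6% of changes of 1 log2 unit, and 6.04% of its calls were false. The simulated noise was normal, had the variances fitted by limma and was independent between arrays and probe sets. Real arrays correlate as given above, so these rates may not hold for them.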

Additional observations from a re-analysis of the deposited data

Results flagged for a closer look

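In 2 of 44 groups of 4 values, 1 array stood apart from the other 3 by more than Dixon's 95% limit, and chance alone flags about 1 in 20 groups. Both are scrambled 4, the lowest of its group. Myom1 read 9.99 there against 10.31 in the next array, and probe set 1450917_at of Myom2 read 11.86 there against 12.40. Both genes' differences were larger without it, at -0.92 and -0.81 log2 units.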

How the results depend on the processing

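With the replicate number as a block, 7 of the 7 genes, 16 of the 22 probe sets and 2827 probe sets of the whole array were called, against 4, 9 (lower) and 1452 without it; the block ended no call among the 22. Of the 2827 probe sets 1265 were lower in the knockdown, and of the 1452 it was 535. The 3' to 5' covariate gave 14 of the 22 and 2634 over the array, and array weights gave 2628 over the array. Leaving out 1 array at a time gave 0 to 5 of the 7 genes, 1 to 12 of the 22 probe sets and 608 to 2310 over the array, and 0 contrasts. Cyclic loess, the restriction to probe sets at or above the median, the variance trend and the mean over probe sets kept each of these counts within 1.5 times where they were run. The brightest probe set of Ttn and that of Mybpc2, short of the threshold in the unpaired fit, passed with the restriction to probe sets at or above the median, array weights and the covariate (adjusted p between 0.019 and 0.044). Neither passed with the variance trend, and each passed in 1 of 8 fits with 1 array left out. Mybpc2 also fell short under cyclic loess (limma adjusted p = 0.057). No exact test of a contrast could pass with 1 array left out or as paired sign flips, where the smallest p is 0.057 or 0.125. Signs turned only for values near 0. Probe set 1438372_at of Myom2 was -0.0027 under cyclic loess and -0.048 to 0.058 with 1 array left out, 1443726_at of Smyd1 -0.020 to 0.080 and 1443727_x_at of Smyd1 -0.00032 to 0.16. With 1 array left out, the contrast of the brightest Ttn probe set with 1427446_s_at ran from -0.039 to 0.086, with 1431928_at from -0.10 to 0.15, with 1446450_at from -0.16 to 0.16 and with Smyd1 from -0.14 to 0.15, and that of the brightest Smyd1 probe set with 1441667_s_at from -0.12 to 0.034. The causes were not tested. Alternatives for the partner lists were chosen after seeing the data. Probe sets dimmer than the median have no shown level above background.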

Other observations

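Mybpc3, the cardiac myosin-binding protein C, had means of 6.08 and 6.22 and Mybphl of 5.40 and 5.40, around or under the median of all values, 6.18. Obsl1, a cytoskeletal adaptor protein, differed by -0.15 ± 0.11 (limma adjusted p = 0.58) and Speg, a muscle kinase with titin-like domains, by -0.26 ± 0.08 (limma adjusted p = 0.14). Nbr1, an autophagy receptor that binds the kinase domain of titin, differed by 0.03 ± 0.07 (limma adjusted p = 0.93). Of the titin-binding ankyrin repeat proteins, 2 were called with the cultures paired, Ankrd1 (-0.34 ± 0.09, adjusted p = 0.048) and Ankrd23 (-0.97 ± 0.28, adjusted p = 0.010), and Ankrd2 was not (-0.48 ± 0.22, adjusted p = 0.10). Smyd4, another member of the Smyd family, differed by 0.35 ± 0.11 (limma adjusted p = 0.11).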
